A study of Arabidopsis thaliana with 9 samples.

Results

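UDP-glycosyltransferase (UGT) and glutathione transferase (GST) genes of Arabidopsis thaliana were followed as 59 probe sets out of the 22746 analysed on Affymetrix arrays. They were taken as the probe sets that name exactly 1 gene whose symbol in the probe-set annotation begins with UGT and a digit, or with GSTU, GSTF, GSTL or GSTZ, and UGT78D1 was left out. The 59 probe sets name 59 genes, 46 UGT and 13 GST, and no probe set naming 1 gene had a GSTZ symbol. The TAIR10.1 genome annotation holds 58 UGT and 44 GST genes with such symbols. Statements on the GST genes below thus cover only a part of them. Arrays were made of 3 groups, the F1 hybrid of Col and C24, the accession C24 and the accession Col, each with 3 arrays of separate biological replicates, 9 in all. The material was the seedling with its roots removed, harvested at 10 DAS, and all plants were grown at 22 degrees C with a 16 h/8 h photoperiod and received no treatment that the labels name. Neither the direction of the F1 cross nor the number of plants in a sample is stated. The p-values weigh a difference between groups against a spread estimated from samples of the same group. Of 15 shoot markers listed, RCA, PSAN, SBPASE and PRK were measured and none passed a comparison in limma, with signals between 2912 and 6345 over the 9 arrays.

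UGT enzymes transfer a sugar from a UDP-sugar to small molecules such as hormones, flavonoids, monolignols and foreign compounds, which makes them more soluble and often inactive or fit for storage in the vacuole. GST enzymes of plants join the tripeptide glutathione to reactive compounds, or bind and carry ligands. The tau (GSTU) and phi (GSTF) classes are found in plants and are best known for herbicide detoxification, while the lambda (GSTL) class is known for removing glutathione from adducts. Genes of both superfamilies are often arranged in tandem, and many are switched on by chemical stress.

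Each value below is a normalized signal, the brightness of a probe set on a linear scale after the arrays had been brought to one distribution. Signals of different probe sets are not comparable as transcript levels, so genes were compared between groups only. A probe set was tested if its mean log2 signal over all 9 arrays reached the 30th percentile, a signal of 11.1. Of the 59 genes, 33 were tested, 24 UGT and 9 GST, and 26 were not, 22 UGT and 4 GST. The tests are those of limma fitted to all 15922 probe sets that passed, with Benjamini-Hochberg adjustment over all of them and a threshold of 0.05. In bulk samples such as these, fewer cells of a type and less RNA per cell cannot be told apart.

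Of the 33 tested genes, 4 were higher and 2 were lower in C24 than in Col. The higher ones were the tau-class genes GSTU26, GSTU27 and GSTU20 and the glycosyltransferase gene UGT72B3, and the lower ones were UGT85A2 and UGT88A1. They make up 12.1% and 6.06% of those tested, where over all probe sets tested 3.56% were higher and 4.91% lower in C24. With the replicate number as a block in the fit 5 were higher and 5 lower, where 4.75% of all probe sets were higher and 6.15% lower, and the 4 added were UGT85A7, UGT85A5, UGT71C4 and UGT78D2. Among the 9 GST genes 3 were higher and 0 lower in limma, with 4 at an unadjusted p under 0.05 (21.6% of all probe sets tested), and among the 24 UGT genes 1 was higher and 2 were lower. The median log2 difference, C24 minus Col, was 0.37 for the GST genes, -0.13 for the UGT genes and 0.03 for all probe sets tested. The 3 C24 arrays lay all above those of Col for 5 of the 33 genes, against 13.9% of all probe sets tested, and all below them for 6, against 12.3%.

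**Figure D1:**
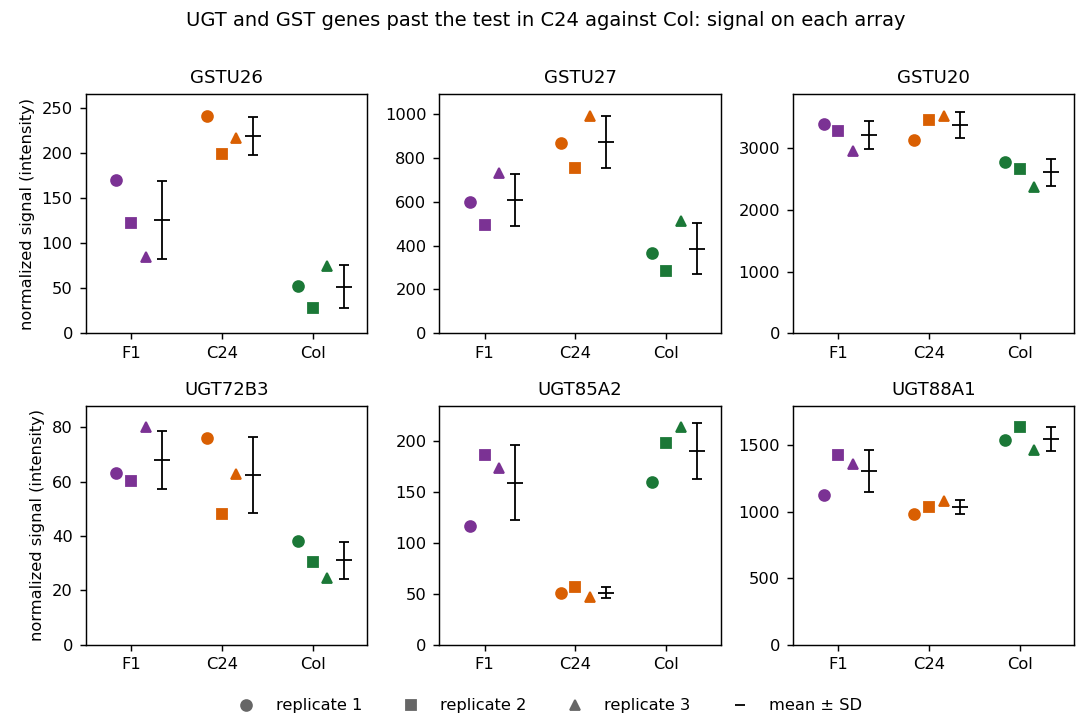
Normalized signal (linear axis from 0) of the 6 genes past the test between C24 and Col, in F1, C24 and Col. Symbols are single arrays by replicate number and black bars are the mean ± SD of 3 arrays. The C24 arrays stand above every Col array for GSTU26, GSTU27, GSTU20 and UGT72B3 and below every Col array for UGT85A2 and UGT88A1.

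GSTU26 (AT1G17190), a tau-class gene known to be induced by herbicides, had signals of 241, 199.7 and 217 in C24 seedlings, against 52.3, 28.4 and 75.2 in Col seedlings. The lowest C24 array was above the highest Col array, and the means were 219.5 ± 20.9 and 52.0 ± 23.4 (SD, n = 3 each). The gene was 4.55-fold higher in C24 (log2 2.18 ± 0.35, standard error; limma adjusted p = 0.00338), and the call held in all 10 fits that left arrays out, with adjusted p up to 0.0296. In F1 it was at 171, 122 and 84.5, above all Col arrays and below all C24 arrays. Neither F1 difference passed the test (limma adjusted p = 0.194 against Col and 0.327 against C24).

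GSTU27 (AT3G43800), another tau-class gene, was at 868, 754 and 990.3 in C24 and at 364, 284 and 510.4 in Col. Replicate 2 was the lowest and replicate 3 the highest array in each of the 3 groups, and the groups C24 and Col did not overlap. With means of 871 ± 118 and 386 ± 115 (SD, n = 3 each) it was 2.31-fold higher in C24 (log2 1.21 ± 0.22; limma adjusted p = 0.00853). The call was lost when replicate 1 of every group was left out (limma adjusted p = 0.0924) and held in the 9 fits without a single array. F1 stood at 596, 494 and 733, below every C24 array and overlapping Col, with limma adjusted p = 0.366 against Col and 0.347 against C24.

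GSTU20 (AT1G78370), whose protein is known to interact with the jasmonate-conjugating enzyme FIN219 (JAR1) in far-red light signalling, had signals of 3124, 3458 and 3518 in C24, against 2777, 2667 and 2367 in Col. The difference was small, 1.29-fold (log2 0.37 ± 0.09; limma adjusted p = 0.0378), and its C24 and Col arrays were separate. The call was lost in 8 of 10 fits that left arrays out: without any C24 array, without Col replicate 2 or 3, without F1 replicate 1 or 2, and without replicate 1 of every group (limma adjusted p up to 0.122). It was also lost with the deposited scaling (log2 0.54, limma adjusted p = 0.0726) and with a common median of all arrays (log2 0.67, adjusted p = 0.0694). F1 was at 3393, 3280 and 2949, all above Col (log2 0.30 ± 0.09; limma adjusted p = 0.323).

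UGT72B3 (AT1G01420) belongs to the UGT72B group, whose member UGT72B1 is known to glucosylate monolignols and chlorinated pollutants. It was at 76.0, 48.0 and 62.8 in C24 and at 38.1, 30.5 and 24.5 in Col, with no overlap. The means were 62.3 ± 14.0 in C24 and 31.0 ± 6.80 in Col (SD, n = 3 each; log2 1.00 ± 0.23; limma adjusted p = 0.0249). The call was lost without C24 replicate 1 or 3, without Col replicate 2 or 3, or without replicate 1 of every group (adjusted p up to 0.0976), and with the deposited scaling (limma adjusted p = 0.0618). The F1 arrays, at 63.0, 60.3 and 80.0, lay in the range of C24 or above it and all above Col. Against Col the F1 difference was 1.14 ± 0.23 on the log2 scale, which did not pass (limma adjusted p = 0.0857) and was the smallest adjusted p of the 33 genes in that comparison.

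UGT85A2 (AT1G22360) had the lowest log2 difference, C24 minus Col, of the 33 genes. Its signals were 50.7, 56.1 and 46.2 in C24, against 159, 197 and 213 in Col, with means of 51.0 ± 4.93 and 189.9 ± 27.9 (SD, n = 3 each), so that C24 was 3.71-fold lower (log2 -1.89 ± 0.20; limma adjusted p = 0.000305). In F1 it was at 117, 186 and 174, each array above every C24 array and 2 of the 3 within the range of Col. It was the only one of the 33 genes past the test between F1 and C24, higher in F1 by 1.61 ± 0.20 on the log2 scale (limma adjusted p = 0.00243). Both calls held in all 10 fits that left arrays out, with adjusted p up to 0.00251 against Col and, for F1 against C24, up to 0.0165.

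UGT88A1 (AT3G16520), whose enzyme is known to glucosylate flavonols in vitro, was at 981, 1037 and 1082 in C24 and at 1543, 1636 and 1461 in Col. The groups did not overlap, and C24 was lower by log2 -0.58 ± 0.11 (limma adjusted p = 0.0115). The call was lost without Col replicate 2 or without replicate 1 of every group (adjusted p up to 0.0923), and with a common median in place of quantile normalization (log2 -0.36, limma adjusted p = 0.163). F1 lay between the parents, at 1125, 1429 and 1359, above every C24 array and below every Col array. Neither F1 difference passed (limma adjusted p = 0.242 against C24 and 0.569 against Col).

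The count higher in C24 was 2 without C24 replicate 1 or Col replicate 2 and 1, GSTU26, without replicate 1 of every group. The count lower was 1, UGT85A2, without Col replicate 2 or without replicate 1 of every group. Shares over all probe sets are not given for these fits. A fall in count is thus not told apart from a fall over all probe sets. Probe sequences were not used here, so for genes that differ between C24 and Col a change in transcript level and a change in the match of transcript to probe cannot be told apart. Of 19 root markers listed 3 were measured. PYK10, a beta-glucosidase gene, was also higher in C24, at 526, 621 and 816 in F1, 1017, 1230.2 and 1839.9 in C24 and 293, 236 and 307 in Col (log2 2.25, limma adjusted p = 0.000241), while EXPA18, an expansin gene of root hairs, was at 12.9, 7.08 and 8.80 in C24 against 13.6, 19.3 and 26.9 in Col (adjusted p = 0.122). The third measured one, EXPA7, had a signal of at most 11.6 and was not tested. The summed signal of the 2 tested root markers was 542 to 829 in F1, 1029.9 to 1849 in C24 and 255 to 334 in Col. That sum was almost all PYK10 signal while EXPA18 lay below every Col array on all 3 C24 arrays, and the part of PYK10 in the results was not tested.

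**Figure D2:**
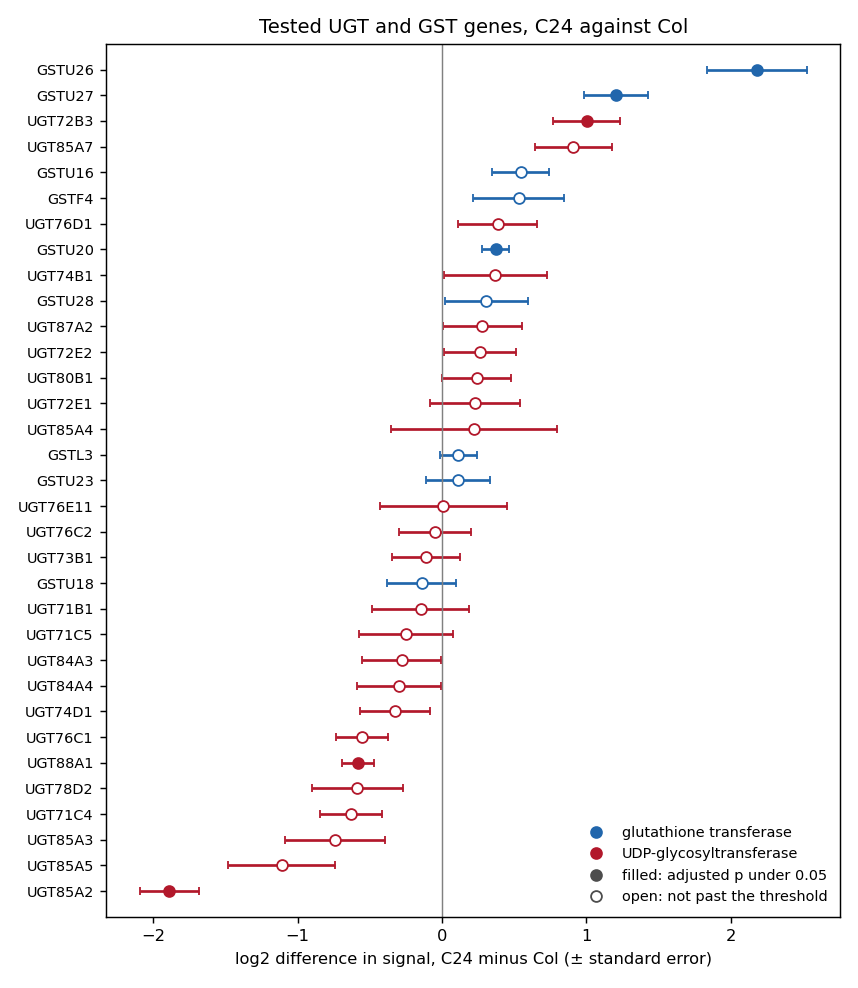
Log2 difference in signal, C24 minus Col, for the 33 tested genes with its standard error, in order of size. Filled points passed the test in limma and open points did not. GSTU26 is highest at 2.18 and UGT85A2 lowest at -1.89. Right of 0 lie 8 of 9 GST and 10 of 24 UGT points, where the median over all probe sets tested was 0.03. Of the GST points 3 passed the test, while GSTL3, GSTU18 and GSTU23 lie within 1 standard error of 0.

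By GST class, the 7 tested tau genes ran from -0.14 (GSTU18) to 2.18 (GSTU26) in log2 difference, C24 minus Col, and 6 lay above 0. Of these, 3 passed the test, and the median over all probe sets tested was 0.03. The genes of this paragraph other than GSTU26 and GSTL3 were named after their values were seen. GSTU16 was at 238, 198 and 235 in C24 and at 208, 136 and 126 in Col (log2 0.55 ± 0.20, limma adjusted p = 0.138). Its groups overlapped by 1 Col array, replicate 1, and only without that array was it called higher in C24 (limma adjusted p = 0.0242). GSTU18, GSTU23 and GSTU28 had differences of -0.14, 0.11 and 0.31 with adjusted p of 0.607 or more in limma. GSTL3, the only lambda-class gene followed, was at 1515, 1402 and 1237 in F1, 1592, 1395 and 1540 in C24 and 1318, 1257 and 1636 in Col. All its groups overlapped (log2 0.11 ± 0.13, limma adjusted p = 0.692). GSTF4, the only phi-class gene followed, was at 32.2, 37.8 and 40.2 in C24 and at 21.0, 17.4 and 44.5 in Col, where replicate 3 stood apart from the others. With all arrays its log2 difference was 0.53 ± 0.32 (limma adjusted p = 0.383). Only without Col replicate 3 was it called higher in C24 (log2 0.95, limma adjusted p = 0.031). For GSTU16 and GSTF4 alike, the array left out was the Col array that overlapped C24. Its removal separates the groups by construction, so no conclusion is drawn from these calls.

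Of the genes known for hormone conjugation, UGT71C5, UGT74D1, UGT76C1 and UGT76C2 were tested and did not pass a comparison in limma, while UGT71B6, UGT74F1, UGT76B1 and UGT84B1 were not tested. UGT71C5, whose enzyme makes the glucose ester of abscisic acid, was at 79.6, 135 and 146 in F1, 93.4, 105 and 107 in C24 and 75.6, 121 and 190.2 in Col (log2 -0.25, C24 minus Col, limma adjusted p = 0.738). UGT74D1, an auxin glucosyltransferase gene, was at 241, 205 and 302 in F1, 185, 155 and 129 in C24 and 179, 151 and 268 in Col, so that F1 lay above every C24 array (log2 0.67 ± 0.24, limma adjusted p = 0.259). UGT76C1 and UGT76C2 encode cytokinin N-glucosyltransferases and are neighbours on chromosome 5. UGT76C1 was at 43.6, 46.3 and 53.1 in C24, all below the 74.2, 70.5 and 64.9 of Col (log2 -0.55 ± 0.18, limma adjusted p = 0.0938), and it passed only with the deposited scaling (adjusted p = 0.037). UGT76C2 was at 43.3, 64.1 and 52.1 in C24 and at 45.6, 64.2 and 54.5 in Col, a log2 difference of -0.05 ± 0.25. UGT74D1 and the UGT76C genes were named after their values were seen.

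Of other genes known for conjugating phenylpropanoids and flavonoids, UGT72E1, UGT72E2, UGT84A3, UGT84A4 and UGT78D2 were tested and did not pass without the block. UGT72E1 and UGT72E2, of the group that glucosylates monolignols, had log2 differences of 0.23 ± 0.31 and 0.26 ± 0.25, C24 minus Col. UGT72E1 was at 148, 158 and 280.3 in F1, 176, 141 and 90.4 in C24 and 90.6, 103 and 148 in Col, with the F1 replicate 3 array highest of the 9. UGT84A3 and UGT84A4, neighbours whose enzymes make glucose esters of hydroxycinnamic acids, had differences of -0.28 ± 0.27 and -0.30 ± 0.29. UGT78D2, the flavonoid 3-O-glucosyltransferase gene, was at 227, 129.8 and 159 in F1, 217, 145 and 135 in C24 and 386, 196 and 189.9 in Col (log2 -0.59 ± 0.32, limma adjusted p = 0.328, and 0.0409 with the replicate block). Of the flavonoid synthesis genes measured beside it, DFR was lower in C24 (1 of 3, log2 -2.13 ± 0.32, limma adjusted p = 0.00268). The others, UF3GT and AT4G14090, encode anthocyanin glycosyltransferases but carry no UGT symbol in the annotation. Their log2 differences, -2.43 ± 0.76 and -2.42 ± 0.91, were as large but did not pass (limma adjusted p = 0.0833 and 0.151). Their Col arrays spread widely, from 64.2 to 569 for UF3GT and from 67.0 to 391 for AT4G14090.

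UGT74B1, the S-glucosyltransferase of glucosinolate synthesis, was at 489.6, 337 and 421 in F1, 682, 372 and 359 in C24 and 519.7, 412 and 197 in Col (log2 0.37 ± 0.36, limma adjusted p = 0.628). Its groups overlapped throughout. BCAT4, the one measured gene of the glucosinolate list, was higher in C24 (log2 0.98, limma adjusted p = 0.0462). UGT80B1, a sterol glucosyltransferase gene known for its effect on the seed coat, was at 172, 104 and 213 in C24 and at 139, 124 and 136 in Col, and UGT87A2, known for an effect on flowering time, at 160.0, 148 and 92.4 against 114, 95.1 and 113. Neither passed (limma adjusted p = 0.636 and 0.633).

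Other genes of conjugation chemistry were measured thinly. The glutathione reductase genes GR1 and GR (AT3G54660), which recycle glutathione, had log2 differences of 0.03 and -0.19, C24 minus Col, and USP, which makes UDP-sugars, one of 0.16. None of them passed in any comparison. Of 5 amido synthetase genes of the GH3 family, which join amino acids to hormones, 4 were tested and 0 passed in limma, with differences from -0.30 for GH3.3 to 0.44 for GH3.9. No probe set naming 1 gene carried an ABCC, MRP or DTX symbol, those of transporters that carry conjugates.

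The position of genes in the genome was read from the TAIR10.1 annotation, by name and order. With at most 3 steps along the protein-coding genes from one to the next, 37 of the 59 genes fell into 15 runs of 2 to 4 neighbours of the same superfamily. The longest with every gene tested was that of UGT85A7, UGT85A2, UGT85A5 and UGT85A3 on chromosome 1, which was singled out after its values were seen. Its differences, C24 minus Col, did not share a sign. UGT85A7 was at 57.1, 53.0 and 32.9 in C24, all above the 25.3, 28.6 and 20.7 of Col (log2 0.91 ± 0.27, limma adjusted p = 0.0695, and 0.0186 with the replicate block and 0.0304 without C24 replicate 3), while its neighbour UGT85A2 was lower in C24.

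UGT85A5 was at 28.7, 67.9 and 80.5 in C24, all below the 96.9, 148 and 109.9 of Col (log2 -1.11 ± 0.37, limma adjusted p = 0.107, and 0.0262 with the replicate block). UGT85A3, close to the filter, was at 7.00, 12.8 and 11.9 in C24 and at 13.1, 15.1 and 25.1 in Col (log2 -0.74 ± 0.35, limma adjusted p = 0.252). In F1, UGT85A7 stood at 27.8, 35.3 and 22.1, near the Col level, and UGT85A5 at 69.5, 117 and 71.0. The difference between these neighbours was not tested, and whether transcripts of one reach the probes of another cannot be read from these files.

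**Figure D3:**
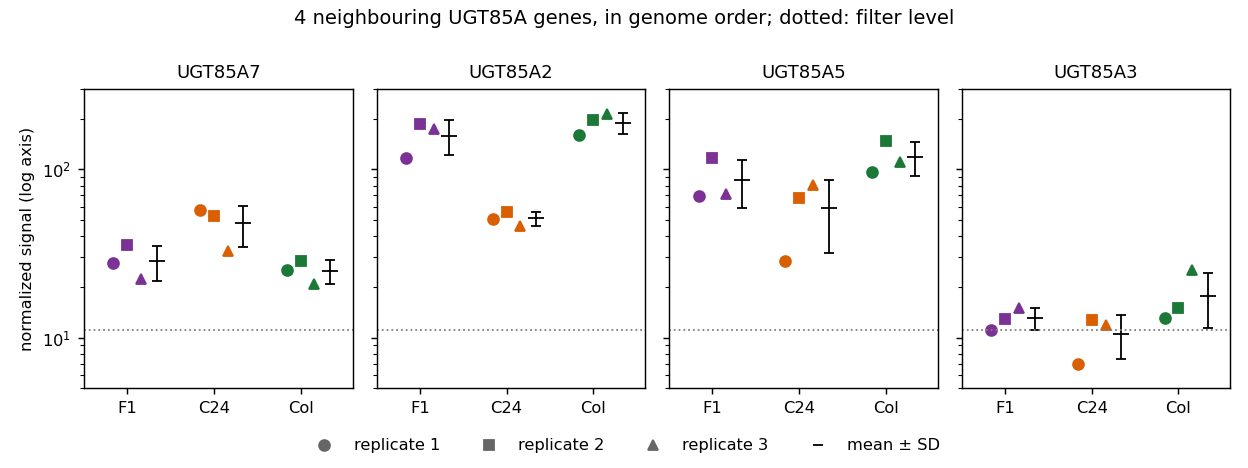
Normalized signal (log axis) of 4 neighbouring UGT85A genes in genome order, in F1, C24 and Col. Symbols are arrays by replicate number, black bars the mean ± SD of 3 arrays and the dotted line the filter level of 11.1. UGT85A7 is higher in C24 than on every Col array, while UGT85A2, UGT85A5 and UGT85A3 are lower than on every Col array.

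In other runs some neighbours were tested and others not. GSTU26 lies beside GSTU25, known for conjugating the explosive TNT, which was at 4.46, 7.87 and 13.3 in C24 and at 8.82, 5.71 and 7.21 in Col, under the filter. GSTU20 lies in a run with GSTU23, GSTU22 and GSTU21, of which GSTU23 was tested (log2 0.11 ± 0.22, C24 minus Col) and the other two were not. UGT71C4 and UGT71C5 were tested beside UGT71C3, which was not. UGT71C4 was at 286, 303 and 278 in F1 and at 270.2, 250.0 and 165 in C24, the C24 arrays below the 433, 335 and 284 of Col (log2 -0.63 ± 0.21, limma adjusted p = 0.111, and 0.0382 with the replicate block).

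The F1 was then set against each parent and against the mid-parent value, the arithmetic mean of both parents that additive expression would give. The comparisons share arrays. Against Col 0 of the 33 genes were higher and 0 lower in limma, where 0.408% of all probe sets were higher and 0.1% lower, and 5 genes, against 8.92% of all probe sets, had an unadjusted p under 0.05. Against C24 1 gene, UGT85A2, was higher and 0 were lower, where 1.7% of all probe sets were higher and 0.377% lower, and 8, against 13.0%, had an unadjusted p under 0.05. The 3 F1 arrays lay all above those of Col for 4 of the 33 genes, GSTU20, GSTU23, GSTU26 and UGT72B3, against 6.98% of all probe sets tested, and all below them for 1, UGT88A1, against 7.6%. They lay all above those of C24 for 5, UGT71C4, UGT73B1, UGT74D1, UGT85A2 and UGT88A1, against 8.94%, and all below them for 3, GSTF4, GSTU26 and GSTU27, against 11.0%. Against the mid-parent value 0 were higher and 0 lower in limma, where 0.00628% of all probe sets were higher and 0.0314% lower, and again 5, against 5.04%, had an unadjusted p under 0.05.

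These 5 were UGT72B3, UGT73B1, UGT74D1, UGT72E1 and UGT84A4, all UGT genes with F1 above the mid-parent value. Of them, UGT73B1 and UGT74D1 were named after their values were seen. The log2 differences of the 5 ran from 0.50 to 0.63, with adjusted p of 0.972 or more in limma. UGT73B1 was at 107, 131 and 136 in F1, 77.9, 101 and 70.2 in C24 and 72.9, 75.9 and 126 in Col, so that each F1 array lay above every C24 array. UGT84A4 was at 44.5, 43.2 and 29.6 in F1, 35.0, 17.7 and 20.6 in C24 and 34.3, 27.1 and 25.3 in Col. Over all 33 genes the median log2 difference from the mid-parent value was 0.01, and -0.02 over all probe sets tested. For the 9 GST genes it ran from -0.20 to 0.27.

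On a scale where 0 is the mean Col signal and 1 the mean C24 signal, F1 stood at 0.441 for GSTU26, 0.457 for GSTU27 and 0.472 for UGT88A1. It stood at 0.791 for GSTU20 and 1.18 for UGT72B3, and at 0.225 for UGT85A2. Single F1 arrays spread widely on this scale, from 0.194 to 0.709 for GSTU26 and from 0.0312 to 0.527 for UGT85A2. Since both parents also vary, these positions are given as values with no test.

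Some of these genes moved with the replicate number in all 3 groups. The array of replicate 1 was the highest of its group in all 3 groups for 9 of the 33 genes, or 27.3%, where 10.9% of all probe sets tested did so. It was the lowest in all 3 groups for 4 genes, or 12.1%, against 10.4%. UGT76E11, whose enzyme glucosylates flavonols, was at 136, 75.8 and 65.1 in F1, 140.1, 68.7 and 62.6 in C24 and 156, 57.9 and 65.2 in Col. The lowest replicate 1 array, at 136, was above every other array, while its group means lay between 90.5 and 93.1.

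UGT71B1 was likewise highest in replicate 1, with 214, 129 and 142 in F1, 235, 132 and 105 in C24 and 237, 129.9 and 144 in Col. The other 7 with replicate 1 highest were GSTU16, GSTU18, GSTU28, UGT74B1, UGT78D2, UGT84A3 and UGT84A4. UGT85A4 was lowest in replicate 1, at 46.6, 89.9 and 165 in F1, 55.0, 84.4 and 139.8 in C24 and 32.8, 97.6 and 128 in Col. Replicate 1 was lowest and replicate 3 highest in each group, and its within-group SD of log2 signal, 0.89, was the largest of the 33 genes. Likewise lowest in replicate 1 were UGT71C5, UGT85A3 and UGT85A5. The median within-group SD was 0.34 over the 33 genes and 0.25 over all probe sets tested. The labels do not say what replicates of one number share, and the genes of this pattern were named after their values were seen.

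**Figure D4:**
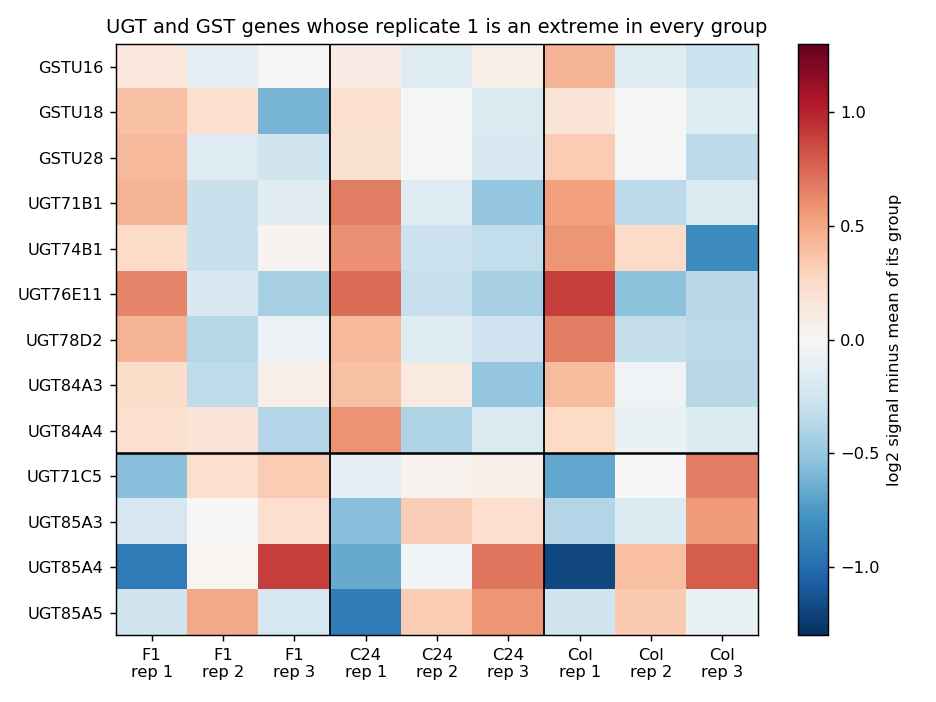
Log2 signal minus the mean of its group (colour) for the 13 genes whose replicate 1 array is the highest (above the black line, 9 genes) or the lowest (below it, 4 genes) in F1, C24 and Col alike. UGT76E11 and UGT85A4 show the widest spread between replicate numbers of the 13.

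Of the 26 genes not tested, 17 were under the filter level of 11.1 on every array and 9 of these never reached a signal of 5. These 9 were UGT72E3, UGT73C2, UGT73D1, UGT76E1, UGT76E12, UGT78D3, UGT84A1, UGT84B1 and UGT84B2. They include UGT72E3 and UGT84A1, relatives of the tested UGT72E and UGT84A genes, and UGT84B1, an auxin glucosyltransferase gene. By family, 6 of 7 UGT73 genes, 6 of 9 UGT71 genes and 4 of 8 UGT76 genes were not tested, and all 5 UGT85 genes were. Present or absent calls were not part of the values used, so a dim signal was not separated from background and no fold is given for it.

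Genes of known function among them were dim in every group. UGT76B1, which conjugates isoleucic acid and salicylic acid, had signals of at most 5.67 in F1, 8.24 in C24 and 4.38 in Col. UGT74F1, a salicylic acid glucosyltransferase gene, had signals of at most 4.30 in F1, 7.25 in C24 and 4.56 in Col. UGT71B6, an abscisic acid glucosyltransferase gene, was at 6.50, 3.22 and 7.74 in F1, 8.41, 10.7 and 8.62 in C24 and 2.33, 6.19 and 1.79 in Col. The C24 arrays of UGT71B6 lay above all others, at signals under the filter level. Just outside the filter, UGT71C3 was at 15.0, 15.0 and 14.1 in F1, 12.3, 16.7 and 12.9 in C24 and 1.26, 15.5 and 6.84 in Col. Just inside, UGT76D1 had a geometric mean signal of 12.1 over the 9 arrays.

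The highest signals among the genes not tested came from single F1 arrays. GSTU25 was at 13.0, 6.94 and 35.7 in F1, UGT73B5, known for its response to pathogens and oxidative stress, at 2.47, 12.7 and 28.5, and UGT73C1 at 14.9, 2.12 and 23.0. In each the F1 replicate 3 array was the highest of all 9, as it was for UGT73B4 at 13.5 and UGT84B2 at 1.42. Among the 33 tested genes that array was highest for 6, UGT72B3, UGT72E1, UGT73B1, UGT74D1, UGT85A4 and UGT87A2, where it was highest for 8.86% of all probe sets tested. The genes listed for this array were named after their values were seen. C24 replicate 1 was highest for 7 of the 33, Col replicate 1 for 6, Col replicate 3 for 5 and C24 replicate 3 for 3. F1 replicate 1, F1 replicate 2 and Col replicate 2 were highest for 2 each, and C24 replicate 2 for 0. Among the 26 genes not tested, F1 replicate 3 was highest for 5, and C24 replicate 2 and Col replicate 1 for 4 each.

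**Figure D5:**
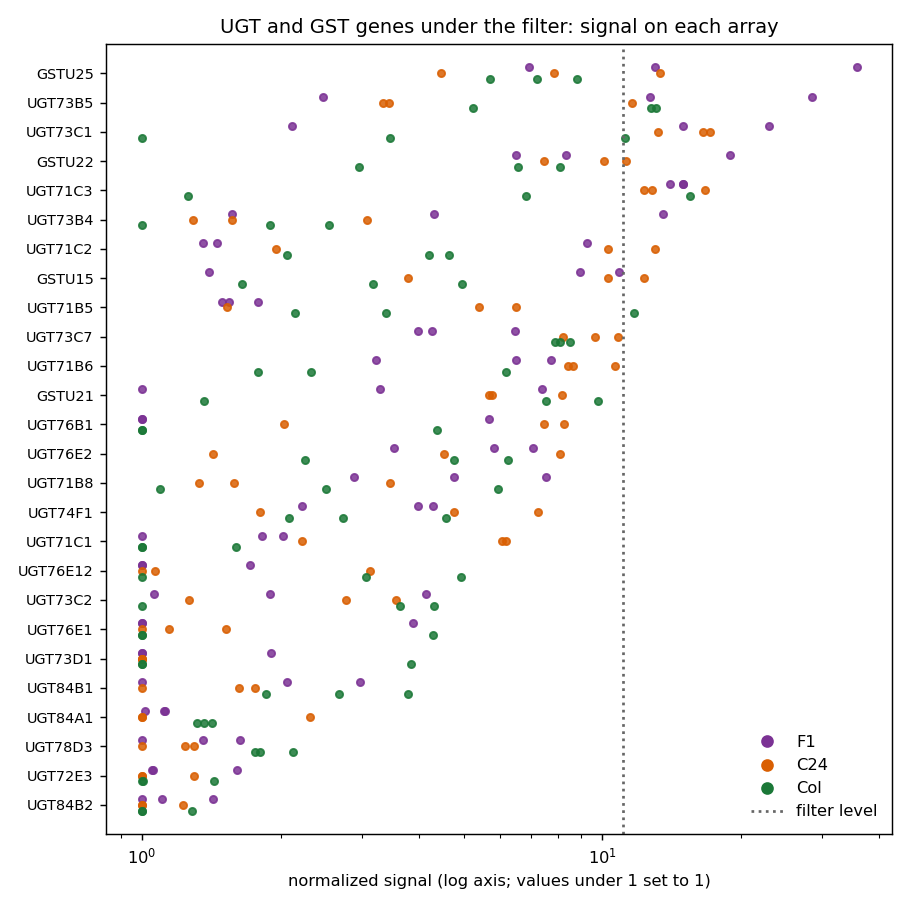
Normalized signal (log axis) of the 26 genes not tested, with 3 F1, 3 C24 and 3 Col arrays per gene and values under 1 set to 1. The dotted line is the filter level of 11.1. The rightmost points are the F1 replicate 3 arrays of GSTU25 at 35.7 and UGT73B5 at 28.5.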

How the data were processed

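The authors deposited a linear intensity for each probe set of 9 Affymetrix arrays with 1 colour. The submitters' processing notes name GCOS, with no version or settings. After leaving out 2% of values at each end, each deposited column had a mean of 150.01 or 150.02, so the arrays had been scaled to one such mean. Their median log2 intensities still differed, at 5.59 to 5.60 for C24, 5.67 to 5.78 for Col and 5.66 to 5.83 for F1, with F1 replicate 3 highest. Here 64 control probe sets were set aside, the other probe sets were brought to one distribution by limma 3.58.1 (quantile normalization, R 4.3.3), set to at least 1 and put on a log2 scale. Probe sets under the 30th percentile of mean log2 signal were left out. One limma fit (lmFit, eBayes with a trend) had a mean per group over all 9 arrays, and the mid-parent variance came from the delta method. The labels number the replicates without saying what a number shares. Deviations from group means of same-numbered arrays correlated at 0.148 to 0.494 between C24 and Col and at 0.108 to 0.473 between F1 and Col. The highest value of each range was that of replicate 1. Between F1 and C24 the correlation was 0.455 for replicate 1, 0.013 for replicate 2 and 0.148 for replicate 3. Arrays of unlike number reached 0.124 between C24 and Col, and 0.185 between F1 replicate 3 and Col replicate 2. The highest such value was 0.205, between C24 replicate 3 and F1 replicate 2. Beyond replicate 1 the numbers are therefore not shown to pair the arrays, and the replicate block is given only as an alternative. The fit was tested on simulated data of 15922 probe sets, 200 of them changed between C24 and Col. The changed ones were taken from probe sets above the median signal. Of the 1.5-fold changes 11.9% were recovered, of the 2-fold ones 55.2% and of the 4-fold ones 90.9%, with 4 false calls. A gene that did not pass may therefore still differ. The number of arrays limits the precision.

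Genes were named through the platform annotation and matched by Entrez number to TAIR10.1: 13513 probe sets named 1 gene, 503 several and 8730 were unnamed, and all 59 genes described matched a locus. The genes and lists were chosen with earlier results of these data known. Named with values were every gene past a test, the 3 brightest tested UGT and GST genes and a list of genes of known role, and others only where said. Sequences were not used here. Alternatives were other scalings, floors and filters, no variance trend, a replicate block, only the groups compared, arrays left out and a log2 mid-parent value.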

Additional observations from a re-analysis of the deposited data

How the results depend on the processing

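GSTU26, GSTU27 and UGT85A2 kept their calls between C24 and Col, and UGT85A2 its call between F1 and C24, under the other scalings, floor, filters, variance model, replicate block and 2-group fits; fits with arrays left out are given above. The count higher in C24 was 2 with the deposited scaling, 2 with no filter and 2 with only the groups compared, each time without GSTU20 and UGT72B3. Under a filter at the 50th percentile UGT72B3 was not tested. GSTU20 was also lost with a common median and with no variance trend. The count lower in C24 was 1 with a common median. With arrays left out, the count higher in C24 ran from 1 to 5 and the count lower from 1 to 2. Apart from the replicate block, these counts are given without the share over all probe sets in the same fit. The counts of 0 and 1 for F1 did not move under any alternative run. With a replicate block 5 genes were lower in C24, and the 4 genes it added to the calls between C24 and Col are given above; it changed no other call. The causes of these changes were not tested. Signals under the filter were not separated from background, which limits what can be said of the 26 genes not tested.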

Other observations

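A further 3 probe sets name a UGT gene together with another gene and so were left out above. The one shared by UGT73B2 and UGT73B3, genes known for their response to pathogens and oxidative stress, was at 56.8, 78.0 and 379 in F1, 55.1, 61.8 and 49.5 in C24 and 60.7, 66.9 and 87.6 in Col. The F1 replicate 3 array thus stood far above the other 8, of which the highest was 87.6, and the probe set passed no comparison in limma (adjusted p = 0.778 for F1 against Col and 0.467 for F1 against C24). On the same array UGT73B5, UGT73B4 and GSTU25 also had their highest signals.

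The probe set shared by UGT89B1, a flavonol and benzoate glucosyltransferase gene, and AT1G73885 was at 85.2, 121 and 127 in F1, 55.4, 44.1 and 56.2 in C24 and 144, 130.3 and 206 in Col. It was lower in C24 than in Col (log2 -1.60 ± 0.22, limma adjusted p = 0.00151) and higher in F1 than in C24 (log2 1.08 ± 0.22, adjusted p = 0.0361), with the 3 groups not overlapping. The files do not say which of the 2 genes gives this signal. The third, shared by UGT71D1 and AT2G29710, passed no comparison in limma, at 18.1, 20.6 and 35.5 in C24 and 30.6, 38.2 and 41.0 in Col (adjusted p = 0.227).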
